A study of Mus musculus with 12 samples.

Results

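The miR-106b-25 and miR-106a-363 clusters are paralogs of the miR-17-92 cluster, and 7 of their miRNAs were examined in mouse carotid arteries. The members were mmu-miR-106a, mmu-miR-20b and mmu-miR-363 from the X-linked cluster, and mmu-miR-106b, mmu-miR-106b*, mmu-miR-93 and mmu-miR-25 from the chromosome 5 cluster. They were taken by assay name and are 7 of the 513 miRNA assays with values. All arteries came from female apoE-/- mice, which lack apolipoprotein E and develop atherosclerosis on a fatty diet. The mice were 6 to 8 weeks old and ate a diet with 21% fat and 0.15% cholesterol for 6 weeks, so that the controls share the genotype and the diet. The left carotid artery was partially ligated, which leaves low and disturbed flow in it, and the untreated right carotid artery was the control. Each group had 6 samples, numbered 1 to 6 and given as biological replicates in the series text. The sources used here do not say which left and right artery came from 1 mouse.

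The 3 clusters descend from a common ancestral cluster by duplication, and their miRNAs fall into families that share a seed, the stretch near the 5′ end that pairs with target mRNAs. Members of the miR-17 family (miR-106a, miR-20b, miR-106b and miR-93) are known from human and mouse cells to repress the cell cycle inhibitor p21 (Cdkn1a) and other brakes on cell cycle entry. miR-25 and miR-363 belong with miR-92a to another seed family, and miR-25 is known to repress the cell cycle inhibitor p57 (Cdkn1c) in human cells. The miR-106b-25 hairpins are carried within Mcm7, which encodes a subunit of the replicative DNA helicase and is transcribed in proliferating cells.

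The mature sequences from RefSeq (mouse build GRCm38.p6) are shown because the comparisons below turn on which members share a seed and how few bases separate the rest of each sequence. All 7 members matched an entry. Bases 2 to 8, the seed, are in capitals, and miR-17 of the miR-17-92 cluster is shown as a paralog. miR-92a is shown as a seed mate: the same mature sequence is encoded in the miR-17-92 cluster and in the X-linked cluster (chrX:52741854-52741874), so its assay cannot tell these sources apart.
miR-106a: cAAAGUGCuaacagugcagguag
miR-20b: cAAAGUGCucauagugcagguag
miR-106b: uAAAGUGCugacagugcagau
miR-93: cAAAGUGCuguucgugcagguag
miR-17: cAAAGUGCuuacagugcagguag
miR-363: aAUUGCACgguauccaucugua
miR-25: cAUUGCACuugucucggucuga
miR-92a: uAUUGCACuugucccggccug
miR-106b*: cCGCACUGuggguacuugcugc

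miR-106a, miR-20b, miR-106b and miR-93 share the seed AAAGUGC with miR-17, and miR-363 and miR-25 share AUUGCAC with miR-92a. miR-106b*, the arm of the miR-106b hairpin opposite miR-106b, has the unrelated seed CGCACUG. With positions counted from 1 at the 5′ end, miR-106a differs from miR-17 at 1 of 23 positions (A10U). It differs from its cluster neighbour miR-20b at 2 of 23 (A10C C12U), from miR-106b at 3 of 21 (C1U A10G G20A) and from miR-93 at 4 of 23 (A10G A11U C12U A13C). miR-25 and miR-92a differ at 3 of 21 positions (C1U U14C U18C). The 3 hairpins of the miR-106b-25 cluster lie within 498 bases of the minus strand (chr5:138165321-138165818), inside the span of Mcm7 on the same strand (chr5:138164583-138172111). The 6 hairpins of the miR-106a-363 cluster lie within 875 bases of the minus strand of the X chromosome (chrX:52741693-52742567). The 6 of the miR-17-92 cluster lie within 836 bases of the plus strand of chromosome 14 (chr14:115043671-115044506).

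The assays were quantitative PCRs, and the deposited values are threshold cycles (Ct). A lower Ct means more RNA, a Ct below 35 was taken as detected, and wells without amplification carry a Ct of 40. The level used here is the mean Ct over the assays detected in every sample minus the assay's own Ct, a log2 scale on which 1 unit is a doubling if the PCR doubles its product each cycle. Between 317 and 341 assays were detected in a control sample and between 330 and 357 in a ligated one. 339 assays were tested and 283 were detected in all 12 samples. Samples 1 to 3 of both groups stood apart from samples 4 to 6 on the first principal component over these 283 assays, which held 43.3% of the variance. These sets were noticed in the values, match adjacent columns of the deposited table, and have no stated meaning in the labels. The raw Ct was 0.93 cycles lower in the ligated arteries in the median assay, a shift that the scaling removes. Smooth muscle markers were detected in all 12 samples (4 of 4), as were endothelial markers (2 of 2). So were markers of leukocytes (6 of 6), epithelium (5 of 7), skeletal muscle (1 of 1), neurons (1 of 2) and red cells (1 of 2). In bulk tissue, fewer cells of a type and less RNA per cell cannot be told apart.

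None of the 6 members that could be tested passed the test between the ligated and the control arteries. miR-106a had the highest difference among the 5 members detected in all 12 samples, 0.43 on the log2 scale, and miR-25 the lowest, -0.03. The median difference over the 6 tested members was 0.15, against -0.05 over all 339 tested assays, whose quartiles were -0.43 and 0.53. 12.4% of all tested assays passed the limma test at an adjusted p below 0.05, against 0 of 6 members, and no member had an unadjusted p below 0.05, against 67 of all 339 assays. The groups overlapped for each of the 6 tested members, and how many of all 339 assays overlap was not counted. Leukocyte markers moved with ligation in the same samples: 4 of 6 were called higher, and their summed level ran from 5.79 to 6.74 in the control and from 6.85 to 8.75 in the ligated arteries. Of the smooth muscle markers 3 of 4 were called lower, with summed levels from 9.89 to 12.5 in the control and from 8.49 to 9.93 in the ligated arteries. The part of either shift in the members' levels was not tested.

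**Figure D1:**
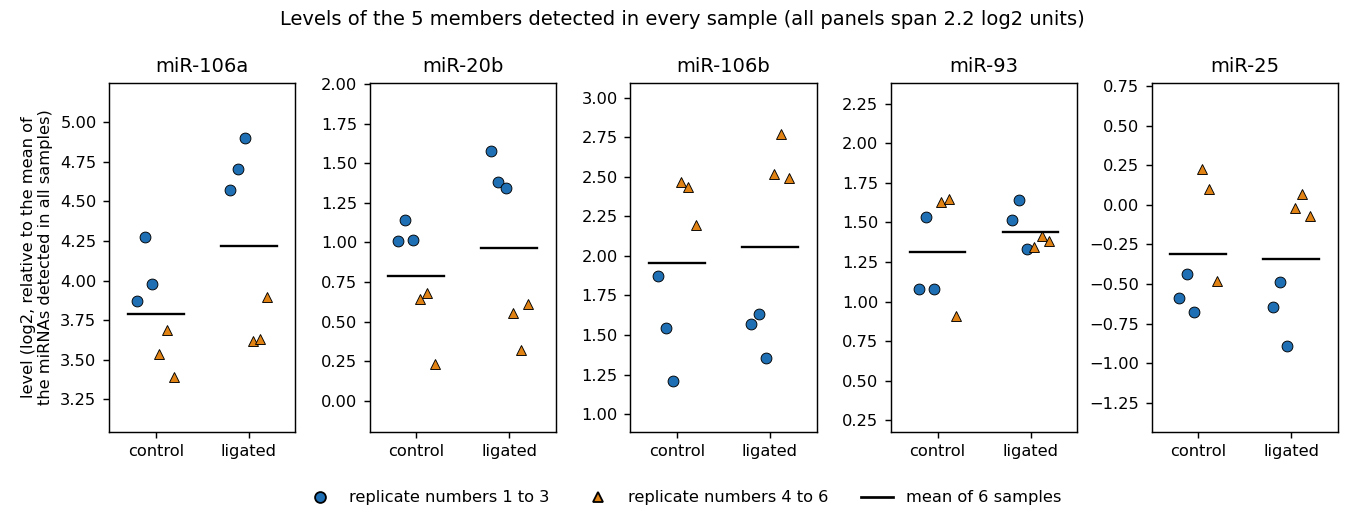
Level of each member detected in all 12 samples (log2 scale, relative to the mean over assays detected in every sample) in the control and ligated arteries, with 1 point per sample, the replicate sets 1 to 3 and 4 to 6 marked apart, and the mean of 6 samples as a bar. The groups overlap in every panel, and for miR-106a, miR-20b and miR-106b the points part more by set than by group.

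miR-106a, the first miRNA of the X-linked cluster, had the lowest mean Ct of the members. It ranked 45th of 283 assays in the control and 35th in the ligated arteries, with mean Ct values of 21.7 and 20.2. Ct depends on the efficiency of each assay, which no source used here states, so this order describes the assays rather than the amounts of RNA. Among the members detected in every sample, the order of levels in both groups was miR-106a, miR-106b, miR-93, miR-20b and miR-25. The ranges of miR-106b and miR-93 overlapped in both groups, as did those of miR-93 and miR-20b. Among these members, miR-106a lay above and miR-25 below all the others. The miR-106a level in the control arteries was lowest at 3.39, had a median of 3.78 and was highest at 4.28. In the ligated arteries the lowest level was 3.62, the median 4.24 and the highest 4.90. Ligated samples 1 to 3, at 4.57, 4.70 and 4.90, all lay above every control sample, while ligated 4 to 6, at 3.62, 3.63 and 3.90, lay among the controls. The mean was 3.79 ± 0.32 (SD, n = 6) in the control and 4.22 ± 0.57 in the ligated arteries. The difference was 0.43 ± 0.29 (SE; 95% interval -0.19 to 1.06), 1.35-fold, with an adjusted p of 0.442 by limma, and ligated was the higher of the same-numbered samples in 5 of 6. An exact two-sided permutation test of this assay alone gave p = 0.134. The interval includes both no change and a rise of 2.08-fold.

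miR-20b, encoded next to miR-18b in the middle of the same cluster, shares the miR-106a seed. Its level ran from 0.23 to 1.14 in the control arteries, with a median of 0.84, and from 0.32 to 1.58 in the ligated ones, with a median of 0.98. The 6 samples numbered 1 to 3 all lay above the 6 numbered 4 to 6, with means of 1.24 and 0.51. Between groups the difference was 0.18 ± 0.28 (95% interval -0.43 to 0.78; adjusted p = 0.776 by limma). Ligated was the higher of the same-numbered samples in 4 of 6.

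miR-363, the last miRNA of the X-linked cluster and a seed mate of miR-25, was not detected in any of the 12 samples. Its wells were at 40 in 10 samples, and ligated 1 and ligated 2 amplified late, at Ct 38.5 and 36.0. No level or test was made from these wells. A Ct of 35 or more does not show that the RNA was absent. The X-linked cluster also holds miR-106a and miR-20b, whose assays were at mean Ct values of 21.7 and 24.7 in the control arteries. How much of the miR-106a signal came from this cluster was not tested. Of the other assays for this cluster, miR-18b was detected in 1 of 12 samples and miR-20b* in 3 of 12.

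In the miR-106b-25 cluster, miR-106b had the lowest Ct, ranking 82nd of 283 in both groups. Its level ran from 1.21 to 2.46 in the control arteries, with a median of 2.03, and from 1.35 to 2.77 in the ligated ones, with a median of 2.06. All 6 samples numbered 4 to 6, with a mean of 2.48, lay above all 6 numbered 1 to 3, with a mean of 1.53. This is the opposite order of the sets from that of miR-20b. The group means were 1.95 ± 0.51 and 2.06 ± 0.60 (SD, n = 6), a difference of 0.10 ± 0.33 (95% interval -0.62 to 0.82; adjusted p = 0.892 by limma). On raw Ct, without scaling, miR-106b was 1.09 cycles lower in the ligated arteries (adjusted p = 0.0282), where 16.8% of all tested assays were called and the median assay was 0.93 cycles lower. The miR-106b shift on raw Ct was thus close to that of the median assay.

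miR-93, processed from the middle hairpin of the same transcript, varied least of the members detected in all samples, with an SD of 0.24 over the 12 samples. Its level ran from 0.91 to 1.65 in the control arteries and from 1.33 to 1.64 in the ligated ones, so that every ligated sample lay within the control range. The medians were 1.31 and 1.40. The group means were 1.31 ± 0.33 and 1.44 ± 0.12 (SD, n = 6), and the difference was 0.12 ± 0.20 (95% interval -0.31 to 0.56; adjusted p = 0.779 by limma).

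miR-25, from the last hairpin, had the highest Ct of the members detected in all samples and ranked 145th of 283 in the control and 143rd in the ligated arteries. Its level ran from -0.68 to 0.23 in the control arteries, with a median of -0.46, and from -0.89 to 0.07 in the ligated ones, with a median of -0.28. The highest control sample, number 4, lay above every ligated sample, and the lowest ligated sample, number 3, below every control. The group means were -0.31 ± 0.38 and -0.34 ± 0.39 (SD, n = 6), a difference of -0.03 ± 0.25 (95% interval -0.58 to 0.52; adjusted p = 0.963 by limma). The intervals of miR-106b, miR-93 and miR-25 overlap.

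**Figure D2:**
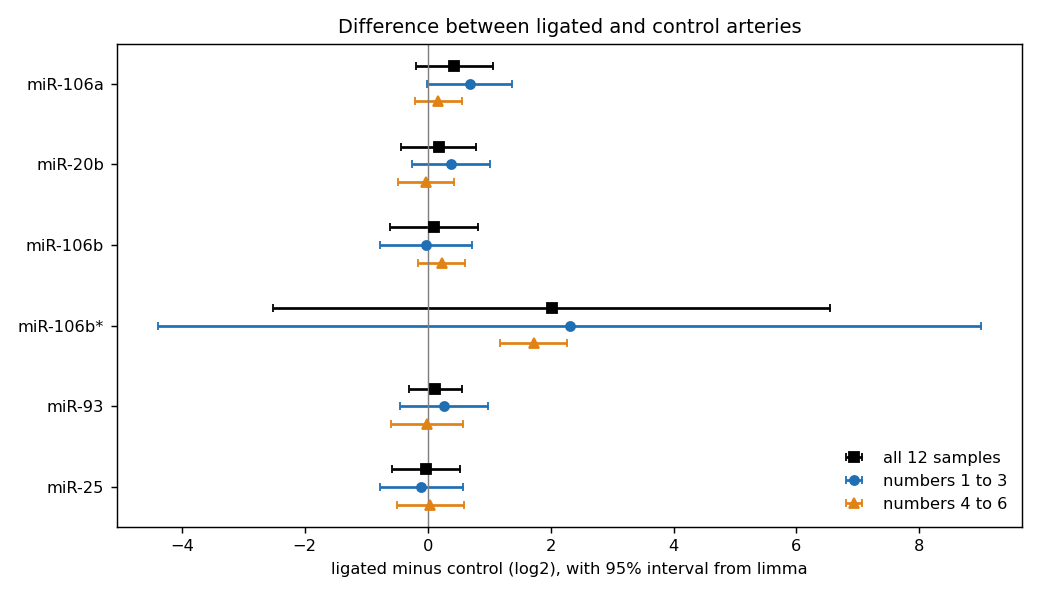
Difference between ligated and control arteries (log2, with 95% interval) for the 6 tested members over all 12 samples and within the sets of replicate numbers 1 to 3 and 4 to 6. Every interval over all 12 samples includes 0, and within numbers 4 to 6 the interval of miR-106b*, 1.17 to 2.27, does not.

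miR-106b* was the member measured least evenly. The Ct values in control samples 1 to 6 were 29.3, 40, 40, 28.9, 28.0 and 28.9. In ligated samples 1 to 6 they were 25.5, 29.0, 40, 25.7, 25.9 and 26.1. Detection was thus reached in 4 of 6 control and in 5 of 6 ligated arteries (Fisher's exact test, two-sided, p = 1), and all 3 wells without amplification were among samples 1 to 3. miR-106b itself amplified in these 3 samples at Ct 22.9, 23.8 and 22.7, so the hairpin's other arm was present there. A failed well and a low level cannot be told apart.

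Over all 12 samples, with undetected wells set to Ct 35, the difference in miR-106b* was 2.02 ± 2.08 (95% interval -2.52 to 6.55; adjusted p = 0.624 by limma). With those wells left out it was 1.11 ± 0.85 (adjusted p = 0.528). The first is no bound on the change, since both groups had undetected wells. In samples 4 to 6, where every well amplified, control levels of -2.50, -2.35 and -2.77 stood against ligated levels of -0.48, -0.84 and -1.13. The difference was 1.72 ± 0.22 (95% interval 1.17 to 2.27), 3.30-fold, with an adjusted p of 0.00511 by limma fitted within this set. In the same fit 29.8% of all tested assays were called, with 1 of 6 members among them. The sets were noticed in these values, so p-values within or between them, here and below, are a description only. Ligated 5 and 6 were the closest of all sample pairs, 0.33 apart on average over the 283 assays. Next came control 5 and 6 (0.34), control 4 and 5 (0.34) and control 4 and 6 (0.39). Ligated 4 and 5 (0.41) and ligated 4 and 6 (0.41) followed, and the next pair, ligated 2 and 3, was 0.53 apart. The series text gives 6 biological replicates per group. The values alone cannot tell whether samples 4 to 6 of a group came from separate arteries. In samples 1 to 3 alone the difference was 2.31 ± 2.72 (adjusted p = 0.749), with 1.47% of assays called. The difference of the effect between the sets was -0.59 ± 2.98 (adjusted p = 0.949, interaction term in limma), and 0.295% of assays passed that test.

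The Ct difference between the arms of 1 hairpin needs no reference. miR-106b* minus miR-106b, on the log2 scale, was -4.97, -4.78 and -4.96 in control samples 4 to 6. In ligated samples 4 to 6 it was -3.00, -3.61 and -3.63. The means were -4.90 ± 0.11 and -3.41 ± 0.36 (SD, n = 3), 1.49 higher in the ligated samples. No test was made of this, and how often other assay pairs part as much in samples 4 to 6 was not counted. In control 1 the arm difference was -6.22 and in ligated 1 it was -3.73, also higher in the ligated artery. Ligated 2, at -6.45, was the lowest of the 9 samples in which both arms amplified. Over those 9, 4 control samples averaged -5.23 ± 0.66 and 5 ligated ones -4.08 ± 1.36.

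**Figure D3:**
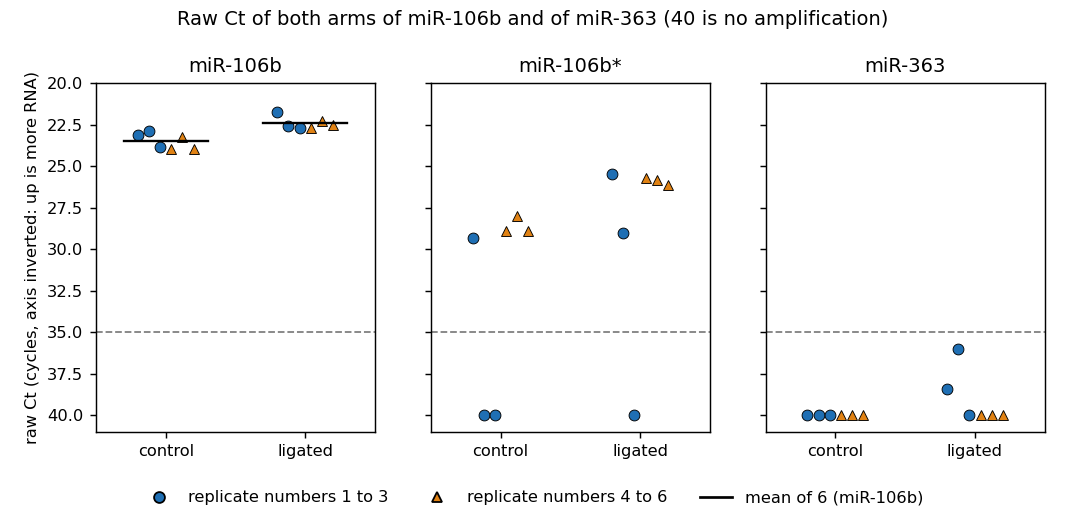
Raw Ct of miR-106b, miR-106b* and miR-363 in each control and ligated sample, with the Ct axis in cycles and wells without amplification at 40. miR-106b amplified in all 12 samples, miR-106b* in 9, and no miR-363 well was below Ct 35.

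Whether cluster neighbours, seed mates and paralogs changed by different amounts was asked with within-sample Ct differences, which are also free of the reference. Of 10 pairs listed, 7 could be formed from assays detected in all 12 samples, and p-values were adjusted over these 7. Each test was an exact two-sided permutation test over 924 divisions of the 12 samples into 6 and 6. No pair passed at an adjusted p below 0.05.

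The pair with the lowest p was miR-20b minus miR-106a. It averaged -3.00 ± 0.13 (SD, n = 6) in the control and -3.26 ± 0.20 in the ligated arteries, a difference of -0.25 (exact p = 0.0260, adjusted p = 0.182). It was lower in ligated in 6 of 6 same-numbered samples, and leaving out any 1 sample gave -0.31 to -0.19. The groups overlapped, with control values from -3.16 to -2.86 and ligated values from -3.56 to -3.00.

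miR-106a and its paralog miR-17 gave almost the same Ct in every sample. Their within-sample difference ran from -0.10 to 0.03 cycles over the 12 samples, with an SD of 0.0451. Repeated rows of the control RNAs were 0.642 cycles apart on average. That value is a mean absolute difference, which keeps any fixed offset between rows, and cannot be set against the SD. The ligated minus control change in this difference was 0.05 (exact p = 0.0758, adjusted p = 0.265). The mature sequences differ at 1 base, A10U, and whether the assays tell them apart was not tested. These values do not show how much of the signal of either assay came from the X-linked and how much from the chromosome 14 cluster.

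Within the miR-106b-25 cluster, miR-25 minus miR-106b was the steadier ratio. It ran from -2.70 to -1.89 over the 12 samples with an SD of 0.263, and its ligated minus control difference was -0.13 (exact p = 0.396, adjusted p = 0.618). miR-93 minus miR-106b had an SD of 0.549 and a difference between groups of 0.02 (exact p = 0.972, adjusted p = 0.972). Its mean was -0.17 in samples 1 to 3 and -1.09 in samples 4 to 6. miR-25 minus miR-93 differed by -0.15 between groups (exact p = 0.442, adjusted p = 0.618). Of the pairs that cross clusters, miR-25 minus its seed mate miR-92a differed by 0.33 (exact p = 0.132, adjusted p = 0.308). Within the sets this difference was 0.04 in samples 1 to 3 and 0.63 in samples 4 to 6. miR-106a minus miR-106b differed by 0.33 (exact p = 0.567, adjusted p = 0.662), and it ran from 2.00 to 3.55 in samples 1 to 3 against 0.86 to 1.40 in samples 4 to 6.

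**Figure D4:**
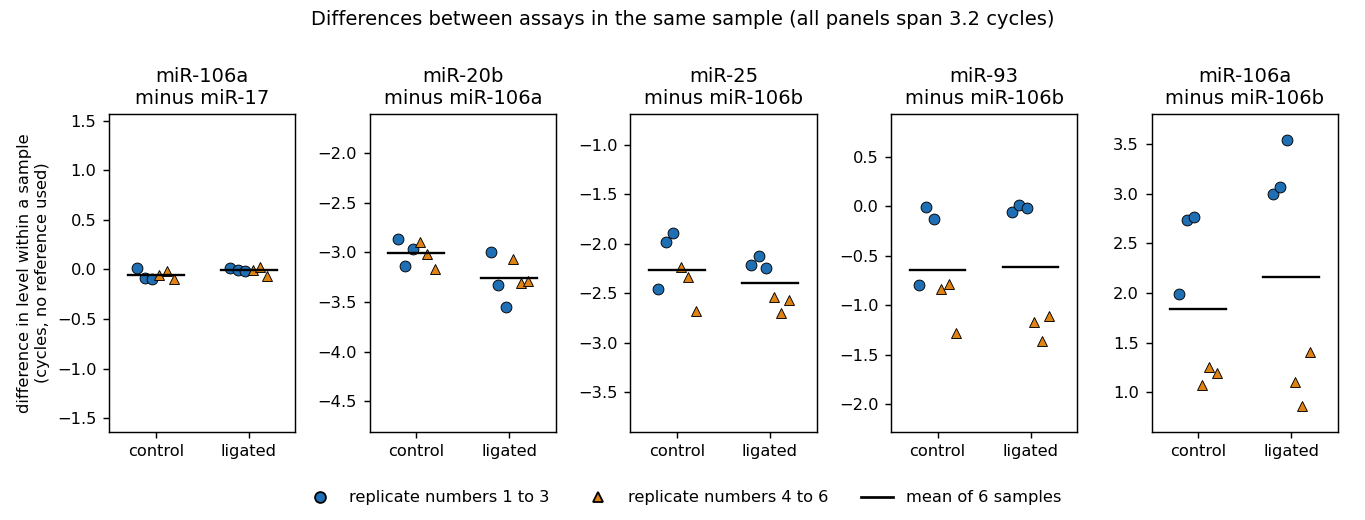
Within-sample Ct differences (log2 units) for the pairs of members and paralogs, with control and ligated samples as points marked by replicate set. miR-106a minus miR-17 stays within -0.10 to 0.03, while miR-106a minus miR-106b falls into separate ranges for samples 1 to 3 and 4 to 6.

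The order of the sets thus ran one way for miR-106a and miR-20b and the other way for miR-106b and miR-25. Samples 4 to 6 minus samples 1 to 3 gave -0.50 in the control and -1.01 in the ligated arteries for miR-106a, and -0.54 and -0.94 for miR-20b. The same difference was 0.82 and 1.07 for miR-106b, and 0.52 and 0.67 for miR-25. miR-93 lay between them at 0.16 and -0.12. Its star arm, miR-93*, ran in the same direction as the X-linked members, at -0.68 and -1.23. The assays of the chromosome 5 cluster thus did not all run in the same direction. No test was made of these differences, since the sets were found in these data.

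Within the sets, the miR-106a difference between groups was 0.69 (95% interval -0.01 to 1.38; adjusted p = 0.429 by limma) in samples 1 to 3. In samples 4 to 6 it was 0.18 (95% interval -0.21 to 0.56; adjusted p = 0.406). The difference between the sets was -0.51 ± 0.27 (adjusted p = 0.603, interaction term in limma). Because the sets were noticed in these data, p-values within and between them are a description only. With the set as a block, miR-106a had the lowest adjusted p of the members, 0.0749, with a 95% interval of 0.09 to 0.77, in a fit that called 19.8% of all tested assays. Blocked by replicate number, miR-106a had an adjusted p of 0.181 and miR-106b* one of 0.137, in a fit that called 15.3% of all tested assays. Neither blocked fit called a member.

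The assays whose Ct ran most like each member were found by the SD over 12 samples of the within-sample Ct difference, as a description. For miR-106a these were miR-17 (0.0451) and miR-150 (0.212), a lymphocyte miRNA, and its cluster neighbour miR-20b was between them at 0.207. The median SD over the 282 other assays was 0.932. miR-20b was nearest to miR-106a, then to miR-17 (0.207) and miR-19a (0.265). miR-106b was nearest to miR-324-5p (0.214) and miR-103 (0.247), with miR-25 4th at 0.263 and miR-93 57th at 0.549. miR-93 was nearest to miR-19b (0.194) and miR-19a (0.248), of which miR-19a is encoded in the miR-17-92 cluster and the same mature miR-19b in both that cluster and the X-linked one (chrX:52741991-52742013). For miR-25 the nearest assay was miR-106b (0.263), followed by miR-361 (0.279) and miR-103 (0.289). Ranked from miR-106a, miR-106b came 148th of 282 at 0.963, although the sequences share a seed.

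Of the listed cluster and seed mates, 16 had values and 11 were tested, and none passed the test over all 12 samples. Their median difference was 0.20. miR-18a, a miR-17-92 miRNA with the related seed AAGGUGC, came nearest. Its level ran from -3.98 to -3.05 in the control and from -3.06 to -2.18 in the ligated arteries, a difference of 0.80 ± 0.26 (adjusted p = 0.0685 by limma). Blocked by replicate number, its adjusted p was 0.0495, and blocked by set 0.00965. It was also called on raw Ct, with a limit of Ct 32, with array weights and within samples 4 to 6, and it was not called with U6 and snoRNA429 as the reference (0.60, adjusted p = 0.841). miR-92a, the seed mate of miR-25, was at a difference of -0.36 ± 0.17 (adjusted p = 0.258). It was called within samples 4 to 6 (-0.58, adjusted p = 0.0373) and with array weights (-0.51, adjusted p = 0.0103). miR-17 was at 0.38 ± 0.29 (adjusted p = 0.495). miR-93*, the other arm of the miR-93 hairpin, was at -0.08 ± 0.34 (adjusted p = 0.912).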

How the data were processed

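Total RNA was isolated with the mirVana kit, per the labels' protocols. The deposited main table holds raw Ct values of 517 miRNA assays, 4 of them blank, and of 6 control RNAs. No source used here gives the instrument or threshold settings. The deposited value table, with 519 assays, equals Ct less the average of U6 and snoRNA429 in 513 of 513 common rows within 0.0005 cycles, and its column medians lay between 10.7 and 13.8 cycles. A table of a separate run (8 rows) holds no member and was not used.

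Ct values of 35 or more were set to 35, and the mean Ct over assays below 35 in every sample served as each sample's reference. Assays with 4 or more detected wells of 6 in either group were fitted with limma 3.58.1 (lmFit and eBayes, group only) in R 4.3.3, with Benjamini-Hochberg adjustment over all 339 tested assays. Depth has no counterpart in Ct data, and the number of samples limits the precision. The fit was tested on simulated data. Ratios, exact tests and figures were made in Python 3.11.15. The text names all members, a list of cluster and seed mates, and the 2 nearest assays by Ct difference. miR-363 was not among the 339 tested assays. Members and lists were chosen with earlier results of these data known. The fit blocked by replicate number took equal numbers as pairs, an assumption that no source used here states. With the group means removed, r for same-numbered samples was lowest at 0.252 and highest at 0.697. The parting of samples 1 to 3 from 4 to 6 was not removed, and it alone can make samples of 1 set alike. These r values therefore cannot show that equal numbers are pairs. A sample was closest to its own number in 2 of 6 cases. Alternatives covered the reference, detection limit, filter, undetected wells, blocks, weights, sets, single samples, the deposited value table and, added after seeing the data, the samples whose miR-106b* well did not amplify.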

Additional observations from a re-analysis of the deposited data

How the results depend on the processing

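Over 33 alternatives the miR-106a difference stayed between 0.11 and 1.42, with adjusted p-values between 0.0749 and 0.933, and it was never called. Differences near 0 changed sign with the reference. Scaled to U6 and snoRNA429, or in the deposited value table, miR-20b was at -0.027, miR-106b at -0.10 and miR-93 at -0.081. Scaled to U6 they were at -0.14, -0.21 and -0.19. With the 3 snoRNAs, miR-106b was at -0.034 and miR-93 at -0.013. On raw Ct, miR-106b was called (1.09, adjusted p = 0.0282), making 1 member called, while miR-25 was at 0.96, miR-92a at 0.62 and miR-93* at 0.91. miR-25 was at 0.013 with a limit of Ct 32 and at 0.069 with array weights. In numbers 1 to 3 alone miR-106b was at -0.023 and miR-93* at 0.20, and with U6 and snoRNA429 there, miR-20b was at -0.018 and miR-93 at -0.13. In numbers 4 to 6 alone miR-20b was at -0.025, miR-93 at -0.016 and miR-25 at 0.044, and miR-106b* was called at 1.72, making 1 member called. There the ratios miR-93 minus miR-106b, miR-25 minus miR-93 and miR-106a minus miR-106b were at -0.245, 0.060 and -0.053. Without the samples whose miR-106b* well did not amplify, an alternative chosen after seeing the data, miR-106b was at -0.046.

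Leaving out 1 sample gave miR-106b differences from -0.046 to 0.25, miR-25 from -0.11 to 0.081, miR-93* from -0.24 to 0.090 and the ratio miR-93 minus miR-106b from -0.11 to 0.17, so these signs rest on single samples. The sign turned for miR-106b without control 3 or ligated 5, for miR-25 without control 4, control 5, ligated 1 or ligated 3, and for miR-93* without control 1, control 3, ligated 5 or ligated 6. It turned for the ratio without control 1, 4, 5 or 6 or ligated 1, 2 or 3. The uncalled miR-106b* difference of 2.02 ran from 0.99 without control 2 and 1.11 without control 3 to 3.53 without ligated 3, and that of miR-20b from 0.055 without ligated 1 to 0.31 without ligated 5. The count of called assays then ran from 25 (without control 4) to 46, and was 26 without control 6, while 0 members were called. A replicate block, which treats equal numbers as pairs, called no member (miR-106a 0.43, adjusted p = 0.181), and among the mates it changed the call of miR-18a alone. Of 339 assays, 42 were called over all 12 samples, against 10 with U6 and snoRNA429, 10 with U6, 12 in the deposited value table, 67 with the set block, 101 with array weights, 5 in numbers 1 to 3 and 101 in numbers 4 to 6. The causes were not tested. PCR efficiency, assay cross-reaction and card layout are not given, and 6 samples a group limit the precision.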
